A study of Mus musculus with 2 samples.

Results

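The CC chemokine genes Ccl3, Ccl4, Ccl5, Ccl17 and Ccl22 and the receptor genes Ccr4, Ccr8 and Ccr7 were followed through every cell class of 4T1 mouse tumours. These 8 genes were found by symbol among the 32285 genes of the deposited matrices, and each was measured in both libraries. 4T1 is a mouse mammary carcinoma line that stands for triple-negative disease, and the sesquiterpene beta-elemene is a plant compound. The cells had been placed in the mammary fat pad of mice that were then allocated at random to a daily intraperitoneal injection of 30 mg/kg beta-elemene or of an equal volume of normal saline (vehicle), and tumours were collected after 18 days. Whole dissociated tumours were run on droplets with 3′ chemistry, and each group was 1 library. With 1 library a group, differences between the groups were not checked by replication, and none was tested. The labels give neither the number of mice behind a library nor whether tumours were pooled.

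CC chemokines are small secreted proteins that draw leukocytes along a gradient by binding receptors of the G-protein-coupled family. Ccl3, Ccl4 and Ccl5 are inflammatory ligands, and Ccl3 and Ccl5 bind Ccr1; activated phagocytes make the first pair and cytotoxic lymphocytes are the classical source of Ccl5. Ccl17 and Ccl22 are the ligands of Ccr4, which marks helper and regulatory T cells, and Ccr8 is a receptor of regulatory and type 2 helper T cells. Ccr7 guides naive and central memory lymphocytes and mature dendritic cells towards lymph nodes.

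Counts are of unique molecular identifiers (UMIs). The deposited beta-elemene barcodes numbered 11539, with 157282740 UMIs in sum and a median of 9682, and the vehicle barcodes 11324, with 168750895 UMIs and a median of 11878.5. After filters on genes and mitochondrial UMIs and removal of called doublets, 10546 beta-elemene and 10465 vehicle cells were kept. Clusters were made without the 8 genes and named from marker lists, and 781 beta-elemene and 477 vehicle cells stayed unnamed. The labelled tumour was present, with 3012 beta-elemene and 3916 vehicle cells of the malignant class. The libraries shared 37 barcode sequences, 28 of them among kept cells. Neutrophils made up 16.9% of beta-elemene and 10.7% of vehicle cells, and malignant cells 28.6% of beta-elemene and 37.4% of vehicle cells. Over all deposited barcodes, Ccl4 had 21793 UMIs in beta-elemene and 20489 in vehicle, Ccl5 had 12308 in beta-elemene and 12152 in vehicle, and Ccl3 had 11790 in beta-elemene and 10360 in vehicle. The dendritic ligands and Ccr7 were sparser, with 1657 beta-elemene and 1877 vehicle UMIs of Ccl17, 864 and 1067 of Ccl22, and 912 and 1103 of Ccr7. Ccr4 had 157 UMIs in beta-elemene and 355 in vehicle, and Ccr8 had 31 and 37, so statements on these receptors rest on few molecules.

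In the mm10 build the 3 inflammatory ligand genes lie together on chromosome 11, with Ccl5 at chr11:83525778-83530518, Ccl3 at chr11:83647844-83649355 and Ccl4 at chr11:83662584-83664683. The Ccr4 ligands are neighbours on chromosome 8, Ccl22 at chr8:94745590-94751699 and Ccl17 at chr8:94810453-94812036. Ccr4 (chr9:114490316-114504916) and Ccr8 (chr9:120092114-120094906) lie on chromosome 9, and Ccr7 (chr11:99144196-99155077) on chromosome 11. All are protein-coding genes in GENCODE vM21, and no other annotated gene overlaps any of the 8, so their reads need not be split with a neighbour.

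Promoters were looked up because Ccl17 and Ccl22 had most of their UMIs in dendritic cells and Ccr4 differed between the libraries in malignant cells. RefSeq promoters of the GRCm38.p6 build, from 250 bases before to 50 after the start, were at hand for 5 of the 8 genes, and 3 are shown 5′ to 3′ on the gene's strand. They lie at chr8:94810203-94810502 on the plus strand (Ccl17), chr8:94745434-94745733 on the plus strand (Ccl22) and chr9:114496495-114496794 on the minus strand (Ccr4). Capitals mark an AP-1 match.
Ccl17: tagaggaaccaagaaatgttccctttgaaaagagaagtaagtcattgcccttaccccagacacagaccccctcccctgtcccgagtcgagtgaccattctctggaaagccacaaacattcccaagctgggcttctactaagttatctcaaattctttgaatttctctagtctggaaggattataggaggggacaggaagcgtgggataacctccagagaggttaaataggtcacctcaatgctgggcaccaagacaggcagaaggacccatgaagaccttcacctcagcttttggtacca
Ccl22: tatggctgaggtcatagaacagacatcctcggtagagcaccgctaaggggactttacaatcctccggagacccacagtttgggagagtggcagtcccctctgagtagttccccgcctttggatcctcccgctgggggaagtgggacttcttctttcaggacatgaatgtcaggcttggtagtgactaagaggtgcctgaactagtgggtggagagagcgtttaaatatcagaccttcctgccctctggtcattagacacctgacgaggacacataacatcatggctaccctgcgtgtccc
Ccr4: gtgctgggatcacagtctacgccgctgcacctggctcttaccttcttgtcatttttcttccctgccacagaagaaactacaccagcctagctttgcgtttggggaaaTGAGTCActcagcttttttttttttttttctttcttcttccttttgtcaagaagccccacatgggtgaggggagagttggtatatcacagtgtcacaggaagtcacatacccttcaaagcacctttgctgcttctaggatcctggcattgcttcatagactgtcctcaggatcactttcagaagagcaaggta
An NF-kB-type motif (GGG, then 3 bases of any kind, then TTCC), an AP-1 motif (TGANTCA) and a TATA motif (TATAAA) were searched on both strands of the 5 promoters (Ccl3, Ccl17, Ccl22, Ccr4 and Ccr8). The Ccr4 promoter held TGAGTCA at position -143 from its RefSeq start, and none of the other searches matched. That window lies inside the annotated span of Ccr4 given above, so this start is within the gene and not at the outer end of the span. Of 32851 promoters of the same length, 5.56% held the NF-kB-type, 7.81% the AP-1 and 13.6% the TATA letters. A match is a description of the letters, and a missing match says only that these letters are not in the window.

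The 8 genes divided among few cell classes (the plot of UMI shares by class). Pooled over both libraries, macrophages held 72.9% of Ccl4 UMIs and 51.1% (95% interval 50.4% to 51.7%) of Ccl3 UMIs, and neutrophils held most of the rest of Ccl3. The leading class for Ccl3 differed by library. In beta-elemene neutrophils held 46.1% and macrophages 43.8% of its UMIs, and in vehicle neutrophils held 29.1% and macrophages 59.2%. T and NK cells held 63.8% of Ccl5 and 93.9% of Ccr8, which is 62 of 66 UMIs. Dendritic cells held 67.4% of Ccl17, 83.4% of Ccl22 and 58.3% of Ccr7. The malignant class held 340 of 476 Ccr4 UMIs (71.4%), although T and NK cells had the higher Ccr4 level. The intervals given here and below, binomial (exact Clopper-Pearson) for shares and Poisson for UMI sums and ratios, cover counting error only.

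**Figure D1:**
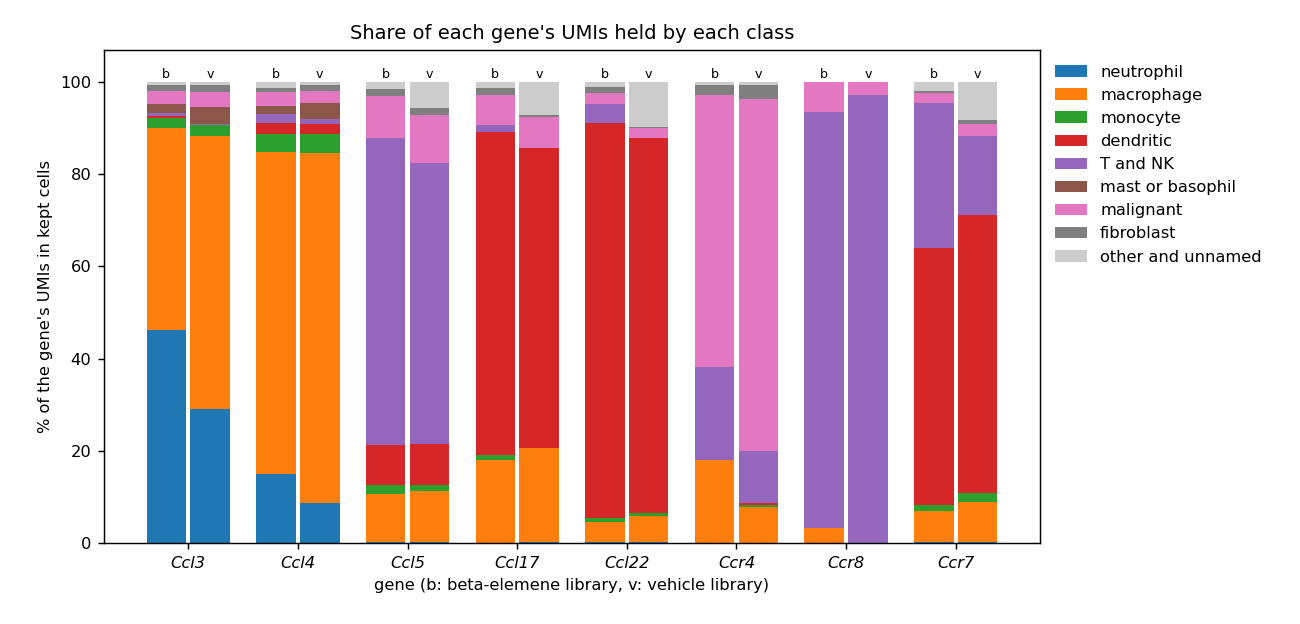
Share of each gene's UMIs held by each cell class, in percent of the UMIs in kept cells, with the beta-elemene library beside the vehicle library for each of the 8 genes. Macrophages and neutrophils hold nearly all Ccl3 and most Ccl4, T and NK cells hold most Ccl5 and Ccr8, dendritic cells hold most Ccl17, Ccl22 and Ccr7, and malignant cells hold most Ccr4.

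Levels were expressed in CPM, a gene's UMIs scaled to the summed UMIs of the class in the library, and the ratio was beta-elemene over vehicle. A gene was called higher or lower in a class when the ratio was at least 1.5-fold either way and its 95% interval excluded 1. Ratios were made for genes with at least 20 UMIs in both libraries together, in classes with at least 100 cells and lymphocyte or dendritic subclasses with at least 50 cells per library. The levels are drawn in the plot of CPM by class, which leaves out the few plasmacytoid dendritic and B or plasma cells. 3′ UMI levels are compared between classes and libraries for 1 gene at a time, not between genes.

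**Figure D2:**
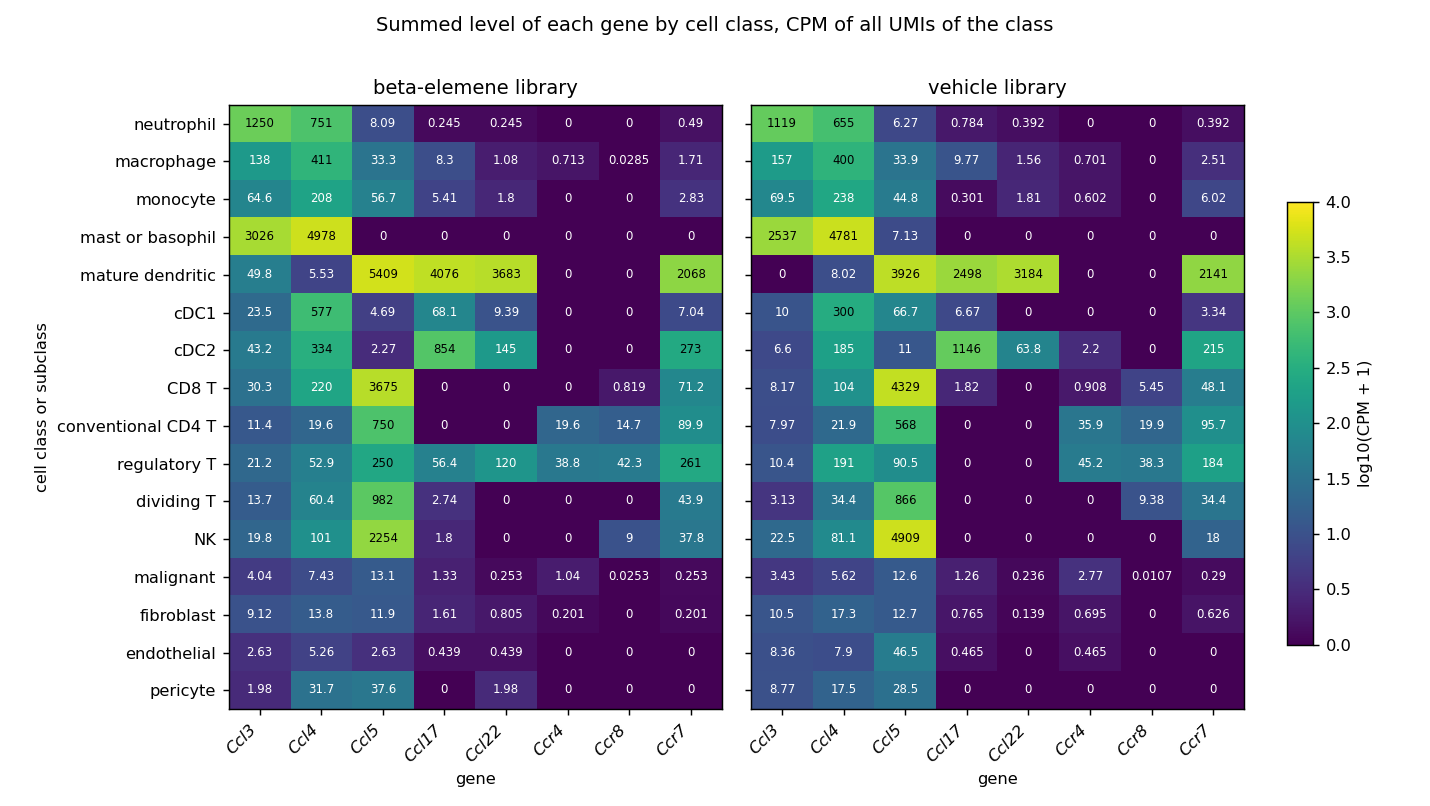
Level of each gene (columns) in the plotted cell classes and subclasses (rows), with the CPM printed in each tile and the colour on a log10(CPM + 1) scale, the beta-elemene library in the left panel and the vehicle library in the right panel. Ccl17, Ccl22 and Ccr7 are highest in the mature dendritic row in both panels, and Ccr4 and Ccr8 are highest in the regulatory T row.

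Ccl3 and Ccl4 were made by neutrophils and macrophages at much the same level in both libraries. Neutrophils had 5102 Ccl3 UMIs at 1250 CPM (1216 to 1285) in beta-elemene and 2857 UMIs at 1119 CPM (1079 to 1161) in vehicle, a ratio of 1.12 (1.07 to 1.17). These UMIs were in 1777 beta-elemene and 1123 vehicle neutrophils. Their Ccl4 was 751 CPM in beta-elemene and 655 CPM in vehicle, a ratio of 1.15 (1.08 to 1.22). Macrophages had Ccl3 at 138 CPM in beta-elemene and 157 CPM in vehicle (ratio 0.881, 0.848 to 0.915) and Ccl4 at 411 CPM in beta-elemene and 400 CPM in vehicle (1.03). None of the 3 members measured in neutrophils was called, where 5.77% of all 9115 genes were, and none of 7 in macrophages, where 4.29% of all 15259 genes were. Monocytes had lower levels of both genes than macrophages, with 64.6 CPM of Ccl3 in beta-elemene and 69.5 CPM in vehicle.

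The share of neutrophils with a Ccl3 UMI was 37.8% (35.6% to 40.1%) in beta-elemene and 37.9% (35.1% to 40.8%) in vehicle, at median depths of 1983 and 1910 UMIs. Thinned to 1000 UMIs per cell, with 1586 beta-elemene and 994 vehicle neutrophils deep enough, the shares were 32.2% and 32.9%. Macrophages, with 34.3% in beta-elemene and 35.5% in vehicle before thinning, gave 9.75% and 10.4% after it, so at equal depth Ccl3 was found in a larger share of neutrophils. Malignant cells, which should lack Ccl3 and had a median of 22433 UMIs in beta-elemene and 21208.5 in vehicle, gave 5.71% and 6.28%, and thinned 0.167% and 0.464%. That level is read as background. Ccl4 was found in 52.3% of beta-elemene and 51.1% of vehicle macrophages, against 12.5% and 9.96% of malignant cells.

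Within the phagocytes, both genes varied more between clusters than between libraries (the plot of phagocyte clusters). The neutrophil cluster led by Cstdc4 and Hcar2 had 2721 CPM of Ccl3 in beta-elemene and 2743 CPM in vehicle, and the cluster led by G0s2 and S100a9 had 620 CPM and 476 CPM, a ratio of 1.30. The first of these clusters had Ccl3 UMIs in 59.2% of 677 beta-elemene cells and 64.7% of 405 vehicle cells, and the second in 24.7% of 1082 and 23.1% of 700. Ccl4 followed the same order, with 1327 CPM in beta-elemene and 1331 CPM in vehicle in the Cstdc4 cluster, against 521 CPM and 408 CPM in the G0s2 cluster. Among macrophage clusters the one led by Ccl8 and Cd163 had the highest Ccl3, 255 CPM in beta-elemene and 274 CPM in vehicle, and the one led by C1qb and Apoe the lowest, 71.5 CPM and 71.4 CPM. Ccl4 in the C1qb cluster was 324 CPM in beta-elemene and 267 CPM in vehicle.

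**Figure D3:**
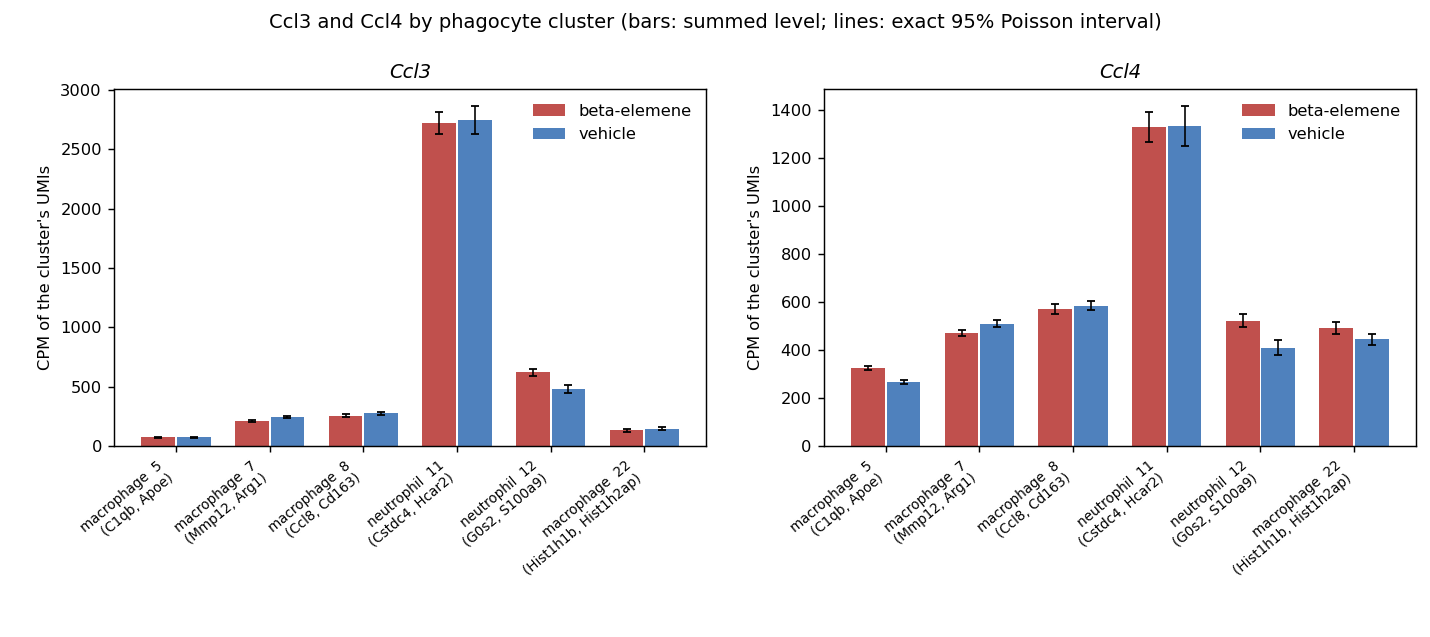
Ccl3 and Ccl4 in the larger clusters of neutrophils and macrophages, as bars in CPM with exact Poisson 95% intervals, with beta-elemene left of vehicle in each cluster. The neutrophil cluster led by Cstdc4 and Hcar2 stands highest for both genes, 2721 CPM of Ccl3 in beta-elemene and 2743 CPM in vehicle, and the libraries lie closer to each other than the neutrophil clusters do.

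Ccl3 and Ccl4 were often in the same cell. Of neutrophils with Ccl3, 36.6% in each library also had Ccl4, against 11.9% of the other beta-elemene and 12.3% of the other vehicle neutrophils. In macrophages the shares were 75.9% in beta-elemene and 73.8% in vehicle, against 39.9% and 38.6% of the cells with no Ccl3. The UMIs were unevenly spread: the 10% of neutrophils with most held 73.0% of Ccl3 in beta-elemene and 70.6% in vehicle, but the single highest cell held 85 of 5102 and 67 of 2857 UMIs.

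Small classes also had these ligands. The mast or basophil class, of 33 beta-elemene and 98 vehicle cells, had 3026 CPM of Ccl3 in beta-elemene and 2537 CPM in vehicle, with 112 and 153 UMIs in the highest cell, which is 51.6% and 43.0% of the sums. Its cells were shallow, with medians of 684 UMIs in beta-elemene and 669 in vehicle, and they also held markers of neutrophils at 5661 CPM and 7816 CPM, with all 8 markers above 0 in both libraries; their part in the result was not tested. The 5 beta-elemene and 10 vehicle plasmacytoid dendritic cells had Ccl4 at 2810 CPM and 4460 CPM. Their medians were 14 Ccl4 UMIs per cell in beta-elemene and 7 in vehicle, with 48 and 109 UMIs in the highest cell.

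In lymphocytes the inflammatory ligands did not share a direction. In CD8 T cells Ccl4 was called higher in beta-elemene, with 269 UMIs at 220 CPM (195 to 248) in 226 cells, against 114 UMIs at 104 CPM (85.4 to 124) in 233 vehicle cells, a ratio of 2.13 (1.70 to 2.67). Ccl4 UMIs were in 29.2% (23.4% to 35.6%) of beta-elemene and 18.9% (14.1% to 24.5%) of vehicle CD8 T cells, at median depths of 5026.5 and 4322 UMIs, and thinned in 12.3% and 7.34%. The background in malignant cells thinned alike was 0.969% in beta-elemene and 0.851% in vehicle. The highest cell held 38 UMIs in beta-elemene and 33 in vehicle, and over all alternatives the ratio lay between 1.56 and 2.57. Both CD8 subclusters had the same direction: the one led by Ly6c2 had 105 CPM in beta-elemene and 53.8 CPM in vehicle, and the one led by Gzmf had 363 CPM and 171 CPM. Macrophage markers, whose class also expresses Ccl4, stood in these cells at 376 CPM in beta-elemene and 408 CPM in vehicle, with 9 of 9 above 0 in each.

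Ccl3 was also called in CD8 T cells, with 37 UMIs in beta-elemene and 9 in vehicle, a ratio of 3.71 (1.76 to 8.73). Of the 37 UMIs, 25 were in 1 cell, and without the highest cell of each library the ratio was 2.23. It was 1.17 with doublets kept and 0.858 at resolution 2.0, so its direction is not settled. These were 2 of 4 measured members called, both higher, in CD8 T cells, where 5.88% of all genes were called and 2.70% called higher. Ccl5 and Ccr7 were the other two. In the whole T and NK class 4 of 8 members were called higher (Ccl3, Ccl4, Ccl17 and Ccl22) and 1 lower (Ccr4), where 6.18% of all genes were called, 2.60% higher and 3.57% lower. For Ccl17 and Ccl22, 16 of 27 and 34 of 35 beta-elemene UMIs were in 1 barcode, described with the regulatory T cells. Ccl4 had 128 CPM in beta-elemene and 79.7 CPM in vehicle across the class, a ratio of 1.61 (1.36 to 1.90), and Ccl3 21.0 CPM and 10.9 CPM, 1.93, or 1.46 without the highest cells.

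Ccl5, the classical chemokine of cytotoxic lymphocytes, was not called in the T and NK class, with 2262 CPM (2212 to 2314) in beta-elemene and 2587 CPM (2526 to 2649) in vehicle, a ratio of 0.875 (0.846 to 0.904). CD8 T cells had 3675 CPM in beta-elemene and 4329 CPM in vehicle (0.849), with a UMI in 73.0% and 73.4% of cells. Neutrophils, read here as the background class, had a Ccl5 UMI in 1.58% of beta-elemene and 1.42% of vehicle cells. Thinned to 1000 UMIs, the shares in CD8 T cells were 58.0% in beta-elemene and 63.3% in vehicle, against 0.883% and 0.704% of neutrophils. Within the CD8 T cells the Ly6c2 subcluster had the higher level, 6011 CPM in beta-elemene and 6753 CPM in vehicle, and the Gzmf subcluster, where Ccl4 was highest, 776 CPM and 1060 CPM. Of CD8 T cells with Ccl5, 33.9% in beta-elemene and 19.9% in vehicle also had Ccl4.

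NK cells had 1252 Ccl5 UMIs at 2254 CPM (2131 to 2383) in 77 beta-elemene cells and 1089 UMIs at 4909 CPM (4622 to 5210) in 48 vehicle cells. With a minimum of 25 cells, chosen after the data were seen, the ratio was 0.459 (0.423 to 0.498), and the highest cell held 141 UMIs in beta-elemene and 109 in vehicle. A Ccl5 UMI was in 51.9% (40.3% to 63.5%) of beta-elemene and 64.6% (49.5% to 77.8%) of vehicle NK cells, at median depths of 5651 and 3536.5 UMIs. Their intervals overlap. Conventional CD4 T cells had 750 CPM in beta-elemene and 568 CPM in vehicle, a ratio of 1.32 that was not called, and dividing T cells 982 CPM and 866 CPM. None of the 4 members measured in conventional CD4 T cells was called, where 7.57% of all genes were.

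Ccl5 was not confined to lymphocytes. Mature dendritic cells had 978 UMIs at 5409 CPM in beta-elemene and 979 UMIs at 3926 CPM in vehicle, with UMIs in 75.0% of 28 and 80.6% of 36 cells. None of 9 T and NK markers had a UMI in the beta-elemene mature dendritic cells, and 6 of 9 had in the vehicle ones, at 68.2 CPM together. Macrophages had Ccl5 at 33.3 CPM in beta-elemene and 33.9 CPM in vehicle, with 49.5 CPM and 54.7 CPM in the C1qb cluster, the highest of the plotted macrophage clusters. In malignant cells it was 13.1 CPM in beta-elemene and 12.6 CPM in vehicle. Malignant clusters did not share a direction and single cells weighed on them: the cluster led by Has2 and Csf3 had 24.95 CPM in beta-elemene and 7.58 CPM in vehicle, with 159 of 337 and 32 of 171 UMIs in 1 cell, and the cluster led by Pttg1 and Cdc20 had 7.28 CPM and 13.4 CPM, with 19 of 130 and 67 of 318 UMIs in 1 cell.

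**Figure D4:**
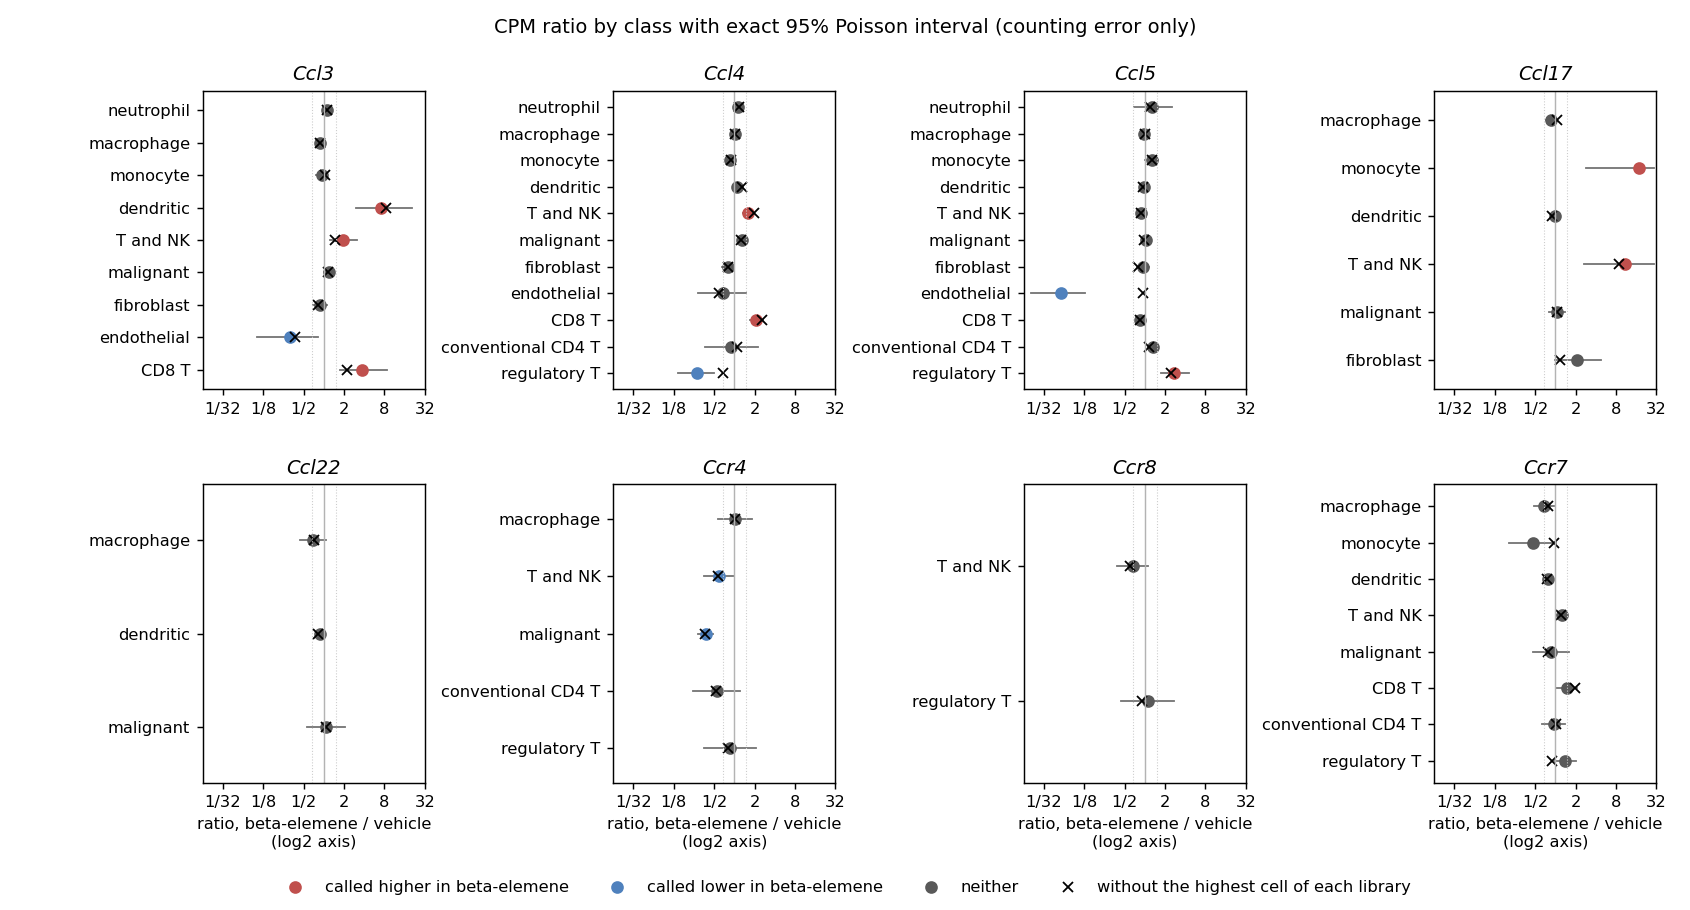
Ratio of beta-elemene to vehicle (log2 axis) for each gene in each class or subclass with enough cells and UMIs, with exact 95% intervals, colours for the calls, dotted lines at the 1.5-fold limits and crosses for the ratio without the highest cell of each library. Ccl4 in CD8 T cells and Ccr4 in malignant cells keep their side of the limits without the highest cells, while Ccl5 in endothelial cells moves to 0.946.

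Ccl17 and Ccl22 came from dendritic cells, and there mostly from the mature subclass, which is named from Fscn1, Relb and other genes of activated, migrating dendritic cells. Neither differed past the limits in the dendritic class of 117 beta-elemene and 119 vehicle cells. Ccl17 stood at 1057 CPM (997 to 1121) in beta-elemene and 1080 CPM (1019 to 1145) in vehicle, a ratio of 0.979, which was 0.670 when cells were clustered at a resolution of 2.0. Ccl22 stood at 681 CPM in beta-elemene and 776 CPM in vehicle, a ratio of 0.877 (0.793 to 0.970). The share of all Ccl17 UMIs held by dendritic cells also depended on where the class ended: it was 67.4%, but 44.0% with called doublets kept and 37.0% at the finer resolution.

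In mature dendritic cells Ccl22 had 666 UMIs at 3683 CPM (3409 to 3974) in 28 beta-elemene cells and 794 UMIs at 3184 CPM (2966 to 3413) in 36 vehicle cells. Its UMIs per cell had a median of 18.5 in beta-elemene and 14.5 in vehicle, with 125 and 85 UMIs in the highest cell. Ccl22 was found in 89.3% of beta-elemene and 88.9% of vehicle mature dendritic cells, against 0.664% and 0.562% of malignant cells. Ccl17 had 737 UMIs at 4076 CPM in beta-elemene and 623 UMIs at 2498 CPM in vehicle, with medians of 8.5 and 4 UMIs per cell and 225 and 113 UMIs in the highest cell. With the added minimum of 25 cells its ratio was 1.63, but 1.44 without the highest cells and 1.11 at the resolutions of 0.5 and 2.0. Of mature dendritic cells with Ccl17, 95.8% in beta-elemene and 89.7% in vehicle also had Ccl22 (the plot of single mature dendritic cells). Of those without Ccl17, which were shallower, 2 of 4 in beta-elemene and 6 of 7 in vehicle had Ccl22, too few to compare.

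**Figure D5:**
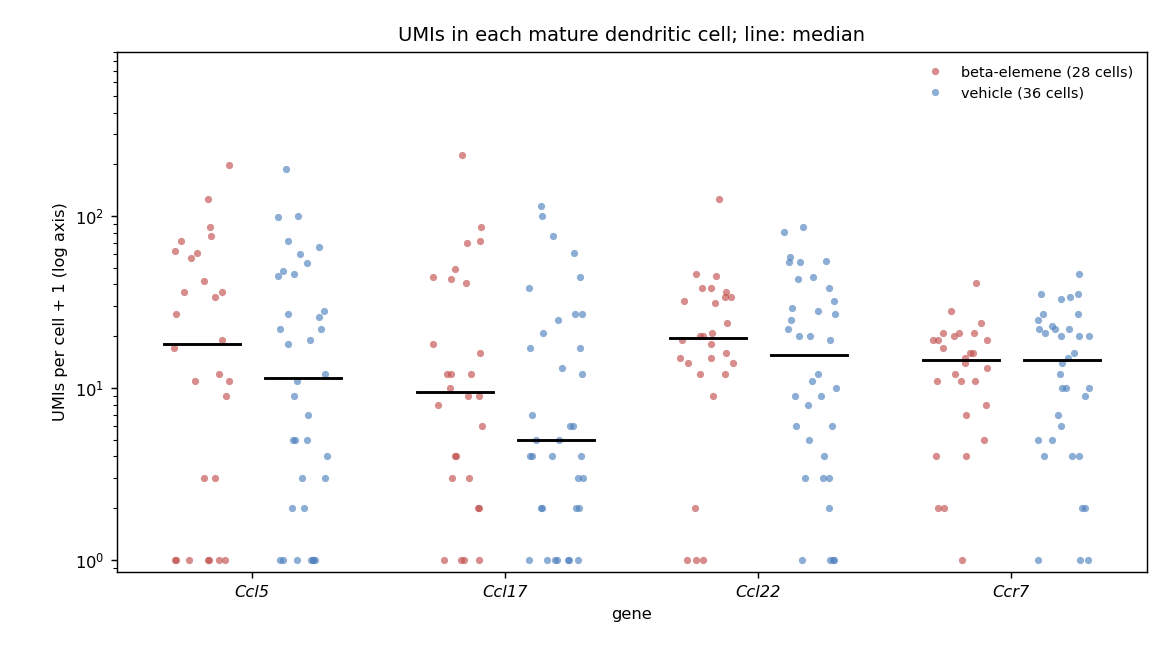
UMIs per cell plus 1 (log axis) of Ccl5, Ccl17, Ccl22 and Ccr7 in the 28 beta-elemene and 36 vehicle mature dendritic cells, 1 point per cell, with the median as a line. The libraries overlap for each gene, and 1 beta-elemene cell with 225 Ccl17 UMIs stands apart from the rest.

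The other dendritic subclasses had less. cDC2, the conventional dendritic cells that present antigen to helper T cells, had Ccl17 at 854 CPM in beta-elemene and 1146 CPM in vehicle, and Ccl22 at 145 CPM and 63.8 CPM, with 50 of the 64 beta-elemene Ccl22 UMIs in 1 cell. Outside dendritic cells, macrophages had Ccl17 at 8.30 CPM in beta-elemene and 9.77 CPM in vehicle, of which 1 cell held 82 of 291 UMIs in beta-elemene and 153 of 362 in vehicle. A Ccl17 UMI was in 1.13% of beta-elemene and 1.21% of vehicle macrophages, at median depths of 12059 and 12868 UMIs, and in 3.15% and 2.76% of the deeper malignant cells. Thinned to 1000 UMIs, the shares were 0.256% and 0.287% of macrophages and 0.134% and 0.103% of malignant cells, with intervals that overlap in each library, and malignant cells had Ccl17 at 1.33 CPM in beta-elemene and 1.26 CPM in vehicle. Monocytes had 21 Ccl17 UMIs in beta-elemene, 16 of them in 1 cell, and 1 in vehicle; this was the 1 member called of 5 measured there, where 5.25% of all genes were called and 2.08% called higher.

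One barcode carried several of these genes into the regulatory T cell subclass. It was a beta-elemene barcode of 9706 UMIs with 35 Ccl5, 16 Ccl17, 34 Ccl22 and 34 Ccr7 UMIs, and with 41 UMIs of 5 mature dendritic markers beside 13 UMIs of 5 T and NK markers. The regulatory T cells of that library had 34 Ccl22 UMIs in all, against 0 in vehicle, at least 11.5-fold higher when vehicle is set at a floor of 3 UMIs. Their Ccl5 ratio of 2.77 (1.74 to 4.52) also includes this barcode, with 35 of 71 beta-elemene UMIs, while the highest vehicle cell held 11 of 26. Leaving out the highest cell of each library did not reverse this ratio, but it was 0.489 when cells were gated on single markers instead. Of 6 members measured in regulatory T cells 2 were called higher (Ccl5 and Ccl22) and 1 lower (Ccl4, 15 UMIs in beta-elemene and 55 in vehicle, with 52 of the 55 in 1 cell), where 9.13% of all genes were called, 5.35% higher and 3.78% lower. Without the highest cells the Ccl4 ratio was 0.671, against 0.276 with them. Among unnamed cells, a vehicle barcode of 25049 UMIs held 87 Ccl22, 66 Ccl5 and 26 Ccr7 UMIs with 47 UMIs of 5 mature dendritic and 267 UMIs of 9 macrophage markers.

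Ccr7 had its highest level in mature dendritic cells. It was not called in any whole class or subclass with the minimum number of cells, but in 3 single clusters of at least 100 cells per library, picked out after their values were seen, it went past the same limits. Mature dendritic cells had 374 Ccr7 UMIs at 2068 CPM (1864 to 2289) in beta-elemene and 534 UMIs at 2141 CPM (1964 to 2331) in vehicle, with UMIs in 96.4% and 91.7% of cells and a median of 13.5 UMIs per cell in each library. cDC2 had 273 CPM in beta-elemene and 215 CPM in vehicle. Across the dendritic class it was 460 CPM (421 to 502) in beta-elemene and 598 CPM (552 to 646) in vehicle, a ratio of 0.770 (0.683 to 0.867) that stayed within the 1.5-fold limits. At a resolution of 2.0 it was 0.662. The 16 beta-elemene B or plasma cells had 10 Ccr7 UMIs at 116 CPM (55.7 to 214), and the 5 vehicle ones had 1 UMI.

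Among T cells the order of Ccr7 levels was the same in both libraries, with regulatory T cells above conventional CD4 T cells above CD8 T cells. Regulatory T cells had 261 CPM (205 to 328) in beta-elemene and 184 CPM (138 to 241) in vehicle, but 34 of the 74 beta-elemene UMIs were in the barcode described above, and without the highest cells the ratio was 0.893, against 1.41 with them. Conventional CD4 T cells had 89.9 CPM (67.7 to 117) in beta-elemene and 95.7 CPM (70.6 to 127) in vehicle, and CD8 T cells 71.2 CPM (57.1 to 87.9) in beta-elemene and 48.1 CPM (36.1 to 63.0) in vehicle. The intervals of the last 2 subclasses overlap in beta-elemene and not in vehicle. The CD8 ratio of 1.48 (1.04 to 2.12) was just inside the limits, and in the Ly6c2 subcluster Ccr7 was called higher, with 40 UMIs at 59.2 CPM in beta-elemene and 11 UMIs at 17.4 CPM in vehicle, a ratio of 3.40 (1.71 to 7.35), where 6.41% of all genes were called and 3.05% called higher. The Gzmf subcluster had 86.2 CPM in beta-elemene and 89.6 CPM in vehicle. A Ccr7 UMI was in 11.1% of beta-elemene and 5.15% of vehicle CD8 T cells, and thinned in 3.65% and 3.67%, against 0.531% and 0.689% of malignant cells before thinning.

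In macrophages Ccr7 was rare, with a UMI in 1.24% of beta-elemene and 1.25% of vehicle cells. It was called lower in the cluster led by Mmp12 and Arg1, with 14 UMIs in beta-elemene and 38 in vehicle, a ratio of 0.402 (0.201 to 0.760), where 4.71% of all genes were called and 2.96% called lower. It was also called lower in the cluster led by Hist1h1b and Hist1h2ap, with 10 UMIs in beta-elemene and 27 in vehicle, a ratio of 0.361 (0.156 to 0.770), where 6.33% of all genes were called and 3.76% called lower. The highest vehicle cell held 23 of the 38 and 14 of the 27 UMIs, and the highest beta-elemene cell 4 of 14 and 7 of 10. The C1qb cluster had 1.90 CPM in beta-elemene and 1.46 CPM in vehicle and was not called.

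Ccr4, the receptor of Ccl17 and Ccl22, was found in CD4 lineages, with few UMIs in each library. Regulatory T cells had 11 UMIs at 38.8 CPM (19.4 to 69.4) in beta-elemene and 13 UMIs at 45.2 CPM (24.1 to 77.4) in vehicle, with UMIs in 12.9% and 13.9% of cells. Conventional CD4 T cells had 12 UMIs at 19.6 CPM in beta-elemene and 18 UMIs at 35.9 CPM in vehicle, and the interval of their ratio ran from 0.240 to 1.20. CD8 T cells had 0 UMIs in 226 beta-elemene cells, which by the limit of 3 counts allows up to 1.33% of cells with a UMI and sets no limit on cells expressing the gene, and 1 UMI in vehicle. Over the T and NK class 28 UMIs at 8.40 CPM in beta-elemene stood against 38 UMIs at 14.2 CPM in vehicle, a ratio of 0.591 (0.349 to 0.988) that was called lower. By the mean over cells it was 0.964, so the call depends on how cells are weighted.

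Malignant cells also had Ccr4 UMIs, and these were called lower in beta-elemene: 82 UMIs at 1.04 CPM (0.825 to 1.29) in 3012 cells, against 258 UMIs at 2.77 CPM (2.45 to 3.13) in 3916 vehicle cells, a ratio of 0.374 (0.288 to 0.481). It was the 1 member called of 7 measured, where 9.42% of all genes were called and 7.84% called lower. The level was lower in beta-elemene in 4 of the 5 large malignant clusters. The cluster led by Hist1h2ap and Hist1h1b, which are histone genes of dividing cells, had 1.68 CPM in beta-elemene and 5.19 CPM in vehicle, the highest of the 5 in vehicle. The cluster led by Gm26917 and Ghr went the other way, with 11 UMIs at 6.91 CPM in beta-elemene and 7 UMIs at 3.27 CPM in vehicle, but 6 of the 11 were in 1 cell and 2.05% of beta-elemene and 1.95% of vehicle cells had any. No malignant cell held many: the highest had 6 UMIs in beta-elemene and 9 in vehicle, and 2.03% (1.55% to 2.59%) and 3.75% (3.18% to 4.40%) of cells had any. Fibroblasts of much the same depth, with medians of 21830 UMIs in beta-elemene and 20909 in vehicle, gave 0.464% and 1.07%, and macrophages had 0.713 CPM and 0.702 CPM. The 9 T and NK markers summed to 6.98 CPM in beta-elemene and 5.60 CPM in vehicle malignant cells; their part in the result was not tested. Thinned to 1000 UMIs, 0.100% of beta-elemene and 0.103% of vehicle malignant cells had a Ccr4 UMI, which is too few to compare.

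Ccr8 was found almost wholly in the T and NK class. Its T and NK level was 8.40 CPM (5.58 to 12.1) from 28 UMIs in beta-elemene and 12.7 CPM (8.81 to 17.8) from 34 UMIs in vehicle, a ratio of 0.660 (0.386 to 1.12) whose interval includes 1. Regulatory T cells had 12 UMIs at 42.3 CPM in beta-elemene and 11 UMIs at 38.3 CPM in vehicle, in 11.4% and 9.72% of cells, and conventional CD4 T cells 14.7 CPM and 19.9 CPM. The conventional CD4 subcluster led by Lgals7 and Calca had Ccr8 in 22.2% of 36 beta-elemene and 18.9% of 37 vehicle cells. By contrast 0.0332% of beta-elemene and 0.0255% of vehicle malignant cells had a Ccr8 UMI despite their greater depth. Ccr8 and Ccr4 were seen in the same regulatory T cell once in beta-elemene and never in vehicle, with 8 and 7 cells positive for Ccr8 and 9 and 10 for Ccr4, which this depth cannot resolve further.

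In stromal classes the members were sparse. Endothelial cells had 6 Ccl5 UMIs in beta-elemene and 100 in vehicle, a ratio of 0.0566 (0.0203 to 0.128), but 95 of the 100 were in 1 vehicle cell that also held 20 UMIs of 6 T and NK markers, and without the highest cells the ratio was 0.946. Ccl3 there had 6 UMIs in beta-elemene and 18 in vehicle (0.315, 0.102 to 0.827), or 0.896 by the mean over cells and 0.817 with doublets kept. These were 2 of 3 measured members called lower in endothelial cells, where 7.18% of all genes were called and 2.76% called lower. None of 4 was called in fibroblasts, against 6.71%. In dendritic cells Ccl3 was the 1 member called of 6, where 8.28% of all genes were called and 2.59% called higher, with 44 UMIs in beta-elemene and 6 in vehicle, a ratio of 7.20 (3.06 to 20.7) that ranged from 2.77 to 8.58 over the alternatives. Neutrophil markers, whose class is rich in Ccl3, stood in dendritic cells at 431 CPM in beta-elemene and 199.9 CPM in vehicle. All 8 were above 0 in each library. By subclass they stood at 791 CPM and 120.3 CPM in mature dendritic cells, with 7 and 3 of 8 above 0. In cDC2 they stood at 252 CPM and 106 CPM, and in cDC1 at 484 CPM and 427 CPM. Mature cells held 9 beta-elemene Ccl3 UMIs and cDC1 held 10, against 0 and 3 in vehicle. The marker list includes Hdc, a lead gene of 1 cDC2 subcluster. The part of these markers in the result was not tested. In cDC2, with the added minimum of 25 cells, the Ccl3 ratio was 6.55 from 19 UMIs in beta-elemene and 3 in vehicle, but 0.484 with doublets kept, 0.961 at resolution 0.5 and 0.486 at resolution 2.0.

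The measured partners of these genes on the pathway list of 17 genes were not called in neutrophils, macrophages or monocytes, while in other classes some were. Ccr1, a receptor of Ccl3 and Ccl5, had 615 CPM in beta-elemene and 583 CPM in vehicle neutrophils. Ccrl2, a receptor that binds ligand without classical signalling, had 1439 CPM in beta-elemene and 1399 CPM in vehicle neutrophils. Of the list genes with at least 50 UMIs, none was called of 4 in neutrophils, 6 in macrophages and 4 in monocytes, where 5.22%, 3.56% and 4.94% of all genes were.

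In lymphoid and dendritic classes single list genes were called. Xcr1, a chemokine receptor of cDC1, was called higher in dendritic cells, 120 CPM in beta-elemene and 69.8 CPM in vehicle (ratio 1.73), the 1 of 7 list genes called there against 8.54% of all genes. Xcr1 is also a marker by which cDC1 were named. They were 41 of 117 beta-elemene and 30 of 119 vehicle dendritic cells, and the part of this mix was not tested. Xcl1, the ligand of Xcr1, was called higher in T and NK cells, 130 CPM in beta-elemene and 86.1 CPM in vehicle (1.52). Ccl8, a ligand of Ccr8 in the mouse, was called lower in that class, 60.6 CPM in beta-elemene and 153 CPM in vehicle, while macrophages had 1236 CPM and 912 CPM. Xcl1 and Ccl8 were the 2 of 6 list genes called in T and NK cells, against 5.32% of all genes. Ccl8 did not keep this direction within the class: in CD8 T cells it was called higher in beta-elemene, as was Ccl1. Ccl1, the other Ccr8 ligand, had 462 UMIs in beta-elemene and 65 in vehicle CD8 T cells, with 289 in 1 cell, and 100 and 225 in conventional CD4 T cells, with 159 in 1 vehicle cell. Counts in the other classes were 2 higher of 4 in CD8 T cells (6.03% of all genes called), 1 lower of 2 in conventional CD4 T cells (8.59%), none of 1 in regulatory T cells (10.5%), 1 higher and 1 lower of 7 in malignant cells (8.36%), 2 higher and 1 lower of 7 in fibroblasts (5.76%) and 2 lower of 4 in endothelial cells (6.59%).

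Companion genes of each role were counted in the same way, and chosen pairs of list and class are given here. In CD8 T cells none of 8 measured effector genes was called, where 6.03% of all genes were, and their median log2 ratio was -0.10 against -0.01 for all genes. In the T and NK class 2 of 9 effector genes were called higher (Prf1, 1.63, and Xcl1) and 1 lower (Ifng, 0.387), against 5.32% of all genes called. In regulatory T cells 2 of 8 list genes were called lower, Foxp3, the lineage factor, at 0.612 and Il1rl1 at 0.640, against 10.5% of all genes called. Foxp3 is also among the markers by which this subclass was named. In the same subclass macrophage markers stood at 843 CPM in beta-elemene and 411 CPM in vehicle, with 9 of 9 above 0 in each, and 2 of 4 inducible phagocyte genes were called higher (Il1b, 9.25, and Cxcl2, 2.72); their part in the regulatory T values was not tested. In dendritic cells 1 of 9 mature dendritic genes was called lower (Il4i1, 0.572), against 8.54% of all genes called, and the median log2 ratio was -0.44, against -0.03 for all genes. Il4i1 and others of these genes also named the mature subclass. It held 28 of 117 beta-elemene and 36 of 119 vehicle dendritic cells, and the part of this mix was not tested. None of 7 inducible phagocyte genes was called in neutrophils, where 5.22% of all genes were, and none of 6 genes of naive and recirculating lymphocytes in T and NK cells. Other pairs had calls either way. Effector genes were called lower for 2 of 4 in conventional CD4 T cells (8.59% of all genes called) and higher for 2 of 5 in malignant cells (8.36%). Regulatory T genes were lower for 2 of 8 in T and NK cells (5.32%) and 2 of 3 in monocytes (4.94%). Inducible phagocyte genes were lower for 3 of 6 in endothelial cells (6.59%) and higher for 1 of 7 in dendritic cells (8.54%).

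The genes whose levels across classes were most like each member were ranked by Pearson correlation of log2(CPM + 10), over 20 points that are the 2 libraries of classes and subclasses with at least 50 cells. These points share library, depth and the clustering, so the values are descriptions. Nkg7 was most like Ccl5 (r = 0.967), with Ms4a4b and Lax1 next. Il2ra was most like Ccr8 (0.964) and Tnfrsf4 most like Ccr4 (0.947); Tnfrsf4 was also among the first 3 for Ccr8. Cyp4f18, Rab44 and Cebpe led for Ccl3 (0.959 for the first), Ncf1 and Tec for Ccl4 (0.933 for the first), and Cd2, Tnfrsf18 and Tigit for Ccr7 (0.988). No dendritic subclass reached 50 cells, so these 20 points hold no dendritic cells, which held most Ccl17, Ccl22 and Ccr7 UMIs. Over them Spata2l led for Ccl17 and Strip2 for Ccl22. With a minimum of 25 cells, added after the data were seen, 32 points were available, and Adam23, Kynu and Il12b were most like Ccl17 (0.936 for the first), Strip2, Il4i1 and Nudt17 most like Ccl22 (0.950), and Irf4, Rab21 and Relb most like Ccr7 (0.912). Over these points Cyp4f18 stayed first for Ccl3 (0.950), while Cblb, Il12rb2 and Epsti1 led for Ccl5 (0.884 for the first), Cd4 for Ccr4 (0.886) and Bcl2l15 for Ccr8 (0.879), so most of these names depend on which points enter.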

How the data were processed

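Tumours of 2 groups were profiled, 1 droplet library per group. The deposited values are counts, raw UMIs per gene and barcode, and the matrices come from Cell Ranger 7.1.0 per the file headers; per the submitters' processing notes reads were processed with Cell Ranger and STAR on mm10. Intron counting and the cell-calling rule are not given in the sources used here. The 8 genes, the gene lists and the rules were chosen with earlier results of these data known.

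Barcodes with at least 200 genes and at most 20% mitochondrial UMIs were kept, called doublets were removed within each library (315 beta-elemene, 338 vehicle), and cells were clustered on 2000 variable genes without the 8 members, with 30 principal components, 15 neighbours and Leiden resolution 1.0 (0.6 for subclusters), without batch correction (Python 3.11.15, scanpy 1.11.5, scipy 1.17.1). Clusters were named from marker lists that held no member, with at least 3 markers detected. UMIs were summed per library and class. Cells are not replicates, so no p-value was made. Interval coverage was tested on simulated Poisson counts only. These leave out the clumping of UMIs in single cells, so that check does not give the coverage in these data. Named genes were the 8 members, pathway list genes with at least 50 UMIs, called companion genes of chosen pairs of list and class, and the 3 genes most like each member. A total of 0 UMIs was set at a floor of 3 UMIs. Alternatives covered scaling, a pseudocount of 10 CPM, the mean over cells, the highest cell, doublets, stricter filters, resolutions 0.5 and 2.0, members among the variable genes, single-marker gates and thinning to 1000 UMIs; a minimum of 25 cells was added after the data were seen.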

Additional observations from a re-analysis of the deposited data

Results flagged for a closer look

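Some ratios of beta-elemene to vehicle went past the limits in 1 class while the same gene stood level or moved the other way in another; the differences between classes were not tested. For Ccl3 the ratios were 7.20 in dendritic cells, 1.93 in T and NK cells and 3.71 in CD8 T cells, against 0.315 in endothelial cells. For Ccl4 they were 1.61 in T and NK cells and 2.13 in CD8 T cells, against 0.276 in regulatory T cells, where 52 of the 55 vehicle UMIs were in 1 cell. For Ccl5 they were 2.77 in regulatory T cells, where 1 beta-elemene barcode held 35 UMIs, and 0.0566 in endothelial cells, where 1 vehicle cell held 95 UMIs.

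Barcodes outside the comparisons, 678 in beta-elemene and 521 in vehicle that failed the filters on genes or mitochondrial UMIs, also differed. Ccl3 had 180 UMIs there in beta-elemene and 26 in vehicle, a ratio of CPM of 5.77 (3.81 to 9.08), with 64 and 5 in the highest barcode. Ccl4 had 174 and 35 UMIs, a ratio of 4.15, with 72 and 6 in the highest barcode. Ccl5 had 65 and 11 UMIs, a ratio of 4.93, with 45 and 2 in the highest barcode. Kept but unnamed cells, 781 in beta-elemene and 477 in vehicle, were also outside the comparisons, and their genes did not share a direction. Ccl5 had 142 and 523 UMIs there, Ccl17 20 and 123, Ccl22 7 and 98, and Ccr7 7 and 85. The highest vehicle cell of each gene held 125, 43, 87 and 28 of these. Ccl3 had 65 and 38 UMIs there, and Ccl4 222 and 100. Called doublets had 22 and 110 Ccl17, 7 and 54 Ccl22, and 918 and 811 Ccl5 UMIs.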

How the results depend on the processing

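No paired analysis was possible because each group is 1 library. Of the ratios that answer a comparison, 80 alternative values stayed and 11 moved; of the others 523 stayed, 65 moved and 10 reversed. The cause was not tested. Moved ratios were Ccl3 in neutrophils (1.05), Ccl5 in T and NK cells (0.920), Ccr4 in malignant cells (0.523) and Ccl4 in CD8 T cells (1.56) by the mean over cells, and Ccr4 in malignant cells (0.864) with 10 CPM added. In dendritic cells Ccl17 was 0.898 without the highest cells, 0.900 with members among the variable genes and 0.670 at resolution 2.0, Ccl22 was 0.753 with doublets kept and 0.647 at resolution 2.0, and Ccr7 was 0.662 at resolution 2.0. Reversed were Ccl3 in CD8 T cells at resolution 2.0 (0.858) and Ccl5 in regulatory T cells by single-marker gates (0.489). Reversed under the added minimum of 25 cells were Ccl17 in cDC1 (0.903, members among the variable genes), Ccl3 in cDC2 (0.484 with doublets kept, 0.961 at resolution 0.5, 0.486 at 2.0), Ccl4 in cDC2 (0.828 at 2.0) and Ccl22 in cDC2 (0.957 without the highest cells, 0.290 with doublets kept, 0.243 at 2.0).

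Pooled shares of UMIs moved with class borders. With doublets kept they were 49.3% of Ccl3 and 70.5% of Ccl4 in macrophages, 59.4% of Ccl5 in T and NK cells, and 44.0% of Ccl17, 76.7% of Ccl22 and 49.7% of Ccr7 in dendritic cells. At resolution 0.5 they were 37.0% of Ccl3 and 60.6% of Ccl4 in macrophages, 62.7% of Ccl5 in T and NK cells and 88.0% of Ccl22 in dendritic cells. At resolution 2.0 they were 74.7% of Ccl4 in macrophages, and 37.0% of Ccl17, 74.5% of Ccl22 and 48.6% of Ccr7 in dendritic cells. Under the stricter filters macrophages held 52.6% of Ccl3 and 73.8% of Ccl4. Depth limits Ccr4 and Ccr8, of which few cells held more than 1 UMI.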
